A study of Mus musculus with 6 samples.

Results

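The circRNAs of 5 host genes were examined, 1 circRNA each of Eif2ak4, Fam208b, Rad54b, Stag2 and Atp13a4, out of 14236 circRNAs with a probe on the array and 13420 that were tested. They were found by host gene in the study's supplementary table of circRNAs, and no further circRNA of these hosts is in the rows used here, which are the whole list of differing circRNAs and the first 1734 rows of the sheet of all circRNAs. All 5 came from the list of circRNAs that differed between genotypes on these same arrays, where the authors' processed values had to pass a fold change of 1.5 with a p under 0.05. Their genotype difference is therefore how they were chosen, and it is described below without a test.

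Cortical microglia of 3 wild-type (WT) and 3 APP/PS1 mice, all males of 6 months, were hybridized in 1 colour to 1 circRNA array per mouse. APP/PS1 mice carry a chimeric mouse/human APP transgene with the Swedish mutation and a mutant human PS1 transgene, and deposit amyloid in the brain. The WT mice were C57BL/6J, and neither the background strain of the APP/PS1 mice nor the promoter of the transgenes is given in the sources used here. Beads against CD11b, which microglia share with other myeloid cells, collected the cells, and the RNA was cleared of linear molecules with RNase R before labelling.

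A circRNA forms when the splicing machinery joins the end of an exon to the start of an upstream or the same exon, which closes the RNA into a ring without free ends. It is made from the same precursor as the mRNA of its host gene, so its level depends on transcription of the host, on the share of the precursor that is back-spliced, and on how slowly rings are lost. The array measured only the rings, and the linear mRNAs of the hosts were not measured. The arrays hold bulk RNA, in which fewer cells of a type and less RNA per cell cannot be told apart.

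The hosts differ in function. Eif2ak4 encodes GCN2, a protein kinase that senses uncharged transfer RNA and phosphorylates the translation factor eIF2 when amino acids run short, a branch of the integrated stress response. Rad54b encodes a DNA-dependent ATPase of homologous recombination, Stag2 encodes a subunit of cohesin, the ring complex that holds sister chromatids together and shapes chromatin loops, and Fam208b, named Tasor2 in RefSeq, is a relative of the silencing factor Tasor. Atp13a4 encodes a P5-type cation-transporting ATPase of membranes whose mRNA in the adult mouse brain is found mainly in astrocytes. Stress response describes Eif2ak4 and genome maintenance describes Rad54b and Stag2, while Fam208b is placed here only by its relation to a silencing factor and neither term covers Atp13a4.

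All 5 are exonic circRNAs and lie inside their host gene. The positions are given without a build in the supplementary table, counted here from 1. They were set against the RefSeq genes of GRCm38.p6, where 1626 of the 1660 circRNAs with a matching transcript (98.0%) fall within their gene. The circRNA of Eif2ak4, mmu_circRNA_34272, is 807 nt long and spans chr2:118417227-118422498 on the plus strand, within transcript NM_013719. That of Fam208b, mmu_circRNA_25943, is 592 nt long and spans chr13:3595497-3600334 on the minus strand (NM_134063). That of Rad54b, mmu_circRNA_36480, is 631 nt long and spans chr4:11593621-11597994 on the plus strand (NM_001039556). These 3 take up 5.27, 4.84 and 4.37 kb of genes of 86.7, 46.8 and 56.9 kb. The circRNA of Stag2, mmu_circRNA_45432, is the longest with 1292 nt and spans chrX:42201855-42229398 on the plus strand (NM_021465), which is 27.5 kb of a gene of 128 kb. The circRNA of Atp13a4, mmu_circRNA_29478, is 574 nt long and spans chr16:29469241-29479902 on the minus strand (NM_172613), which is 10.7 kb of a gene of 156 kb. The exonic circRNAs of the rows used here have a median length of 599 nt, and 1342 of the first 1734 rows of the sheet of all circRNAs (77.4%) are exonic. The later rows of that sheet were not used here. The 5 probes lie in rows 18, 36, 37, 127 and 165 of the array, so they do not form a patch of neighbouring spots, although those of Eif2ak4 and Stag2 are in adjacent rows, in columns 43 and 29.

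The promoters of the hosts are shown because transcription of the precursor from which a circRNA is spliced starts there. RefSeq promoter windows of GRCm38.p6, from 250 bases before to 50 bases after a start site, matched 3 of the 5 hosts, and 1 window for each is printed 5′ to 3′. For Eif2ak4 and Atp13a4, with 2 windows each, it is the one nearest to the 5′ end of the gene, with its start site 34 and 0 bases from that end. Tasor2 has 1 window, whose start site lies 1.78 kb inside the gene. Capitals mark the GC box GGGCGG and the CCAAT box CCAAT on either strand, which do not overlap each other here. The windows are chr2:118388367-118388666 (plus strand), chr13:3611059-3611358 (minus strand) and chr16:29544815-29545114 (minus strand).
Eif2ak4: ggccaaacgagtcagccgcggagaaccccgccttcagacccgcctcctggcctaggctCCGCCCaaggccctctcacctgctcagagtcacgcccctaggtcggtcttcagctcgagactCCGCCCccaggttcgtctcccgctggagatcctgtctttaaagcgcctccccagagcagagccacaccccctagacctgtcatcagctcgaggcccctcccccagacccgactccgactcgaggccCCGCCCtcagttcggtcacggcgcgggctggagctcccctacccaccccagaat
Tasor2: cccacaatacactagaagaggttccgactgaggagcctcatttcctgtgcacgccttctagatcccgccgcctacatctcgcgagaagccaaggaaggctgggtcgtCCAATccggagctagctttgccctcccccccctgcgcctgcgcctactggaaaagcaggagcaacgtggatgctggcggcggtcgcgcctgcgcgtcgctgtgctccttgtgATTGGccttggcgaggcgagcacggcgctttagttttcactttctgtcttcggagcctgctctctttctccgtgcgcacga
Atp13a4: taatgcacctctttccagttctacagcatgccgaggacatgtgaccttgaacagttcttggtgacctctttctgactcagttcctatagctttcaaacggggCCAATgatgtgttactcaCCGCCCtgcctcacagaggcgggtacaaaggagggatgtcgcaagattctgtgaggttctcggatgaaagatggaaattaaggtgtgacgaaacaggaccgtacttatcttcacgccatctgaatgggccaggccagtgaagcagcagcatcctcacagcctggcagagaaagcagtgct

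The windows of Eif2ak4 and Tasor2 are rich in CG pairs, with 22 and 26 of them, and that of Atp13a4 has 9, where the median over the 32851 RefSeq windows is 7. Their GC content is 67.3%, 61.0% and 50.7%, with a median of 52.7% over all windows. The GC box is found 3 times in the window of Eif2ak4, 0 times in that of Tasor2 and 1 time in that of Atp13a4, and 35.7% of all windows hold it. The CCAAT box is found 0, 2 and 1 times, and 37.4% of all windows hold it. The TATA box TATAAA and the cAMP response element TGACGTCA, searched on both strands, are in none of the 3 windows and in 13.6% and 1.79% of all windows. No motif is shared by all 3 windows, and a match of letters is not a bound site.

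Before normalization, the 5 probes differed in how far they stood above the local background of their spot. Values of the 3 mice of a genotype are given in the order of replicates 1, 2 and 3. Over all circRNA probes the median local background was 20.0, 15.0 and 14.5 intensity units in WT and 18, 14.5 and 14.0 in APP/PS1, under a median processed signal of 43.8, 43.3 and 39.1 in WT and 41.7, 57.3 and 51.2 in APP/PS1. The scanner software marked 87.6%, 94.8% and 94.0% of circRNA probes in WT and 87.0%, 96.9% and 92.8% in APP/PS1 as well above background, the lowest shares being those of replicate 1 in both genotypes. No spot of the 5 probes was marked as an outlier, and no circRNA spot was saturated.

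The Eif2ak4 spot had a median signal of 97.0, 104 and 92.0 units in WT, over a local background of 24.5, 14.0 and 14.0, and of 335.5, 337 and 184 in APP/PS1, over 18.5, 15.0 and 14.0. The Rad54b spot had 142, 157 and 124 units in WT and 472, 440 and 255 in APP/PS1. Both were several times their background on every array, between 3.96 and 22.5 times for Eif2ak4 and between 6.76 and 27.5 times for Rad54b. The other 3 spots stood closer to their background.

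The Fam208b spot had 48.0, 40.0 and 39.0 units in WT, which was 2.67, 2.42 and 2.60 times its background, and 97.0, 87.0 and 56.0 units in APP/PS1. The Stag2 spot had 43.0, 48.0 and 44.0 units in WT and 82.0, 71.0 and 63.0 in APP/PS1. The Atp13a4 spot had 42.0, 37.0 and 34.0 units in WT and 65.5, 64.0 and 45.0 in APP/PS1. In each of the 5 spots, every APP/PS1 value before normalization and background subtraction was above every WT value. In the normalized values 12.3% of all circRNAs lay that way, and nothing is read from the 5, which were chosen from this contrast. Stag2 and Atp13a4 were not well above background in WT replicate 1, so 2 of the 3 WT arrays measured them there, and all 3 APP/PS1 arrays did.

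**Figure D1:**
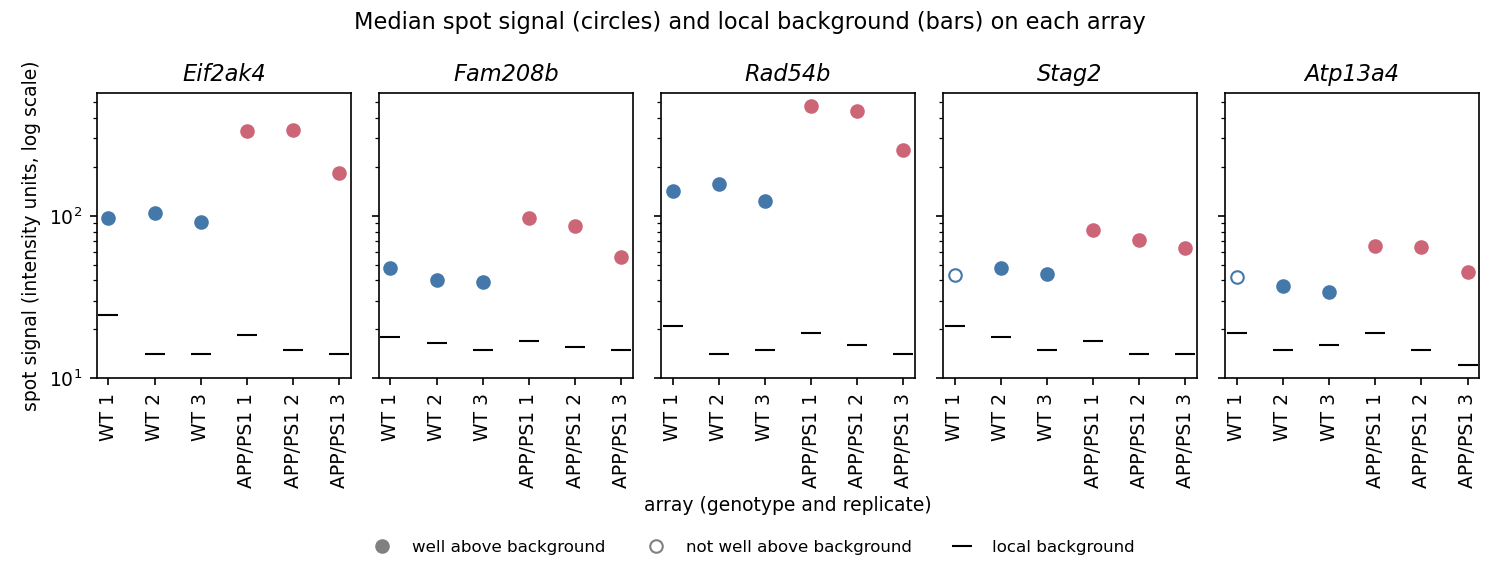
Median spot signal of the 5 probes (circles, intensity units on a log axis) and the local background of the same spot (black bars) on each of the 6 arrays, with WT in blue and APP/PS1 in red and open circles where the spot was not well above background. The Eif2ak4 and Rad54b spots stand clear of their background on all arrays, while the Stag2 and Atp13a4 spots of WT replicate 1, with 43.0 and 42.0 units, are the open ones.

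The scanner software subtracts the background from each spot, and this processed signal was quantile normalized on the log2 scale before limma compared the genotypes over all 13420 circRNAs. With a fold change over 1.5 and a p under 0.05 before adjustment, 3.15% of all circRNAs tested were higher in APP/PS1 mice and 2.26% were lower. All 5 circRNAs are among the higher ones in limma, and since they were chosen from this contrast nothing is read from that count. The standard error of the Stag2 difference was 0.48 in limma and 0.64 from the spread within each genotype. In the methods' t-test, which uses that spread, Stag2 is not among the higher ones, and nothing is read from that either. Over all circRNAs, limma put 0 of 13420, or 0%, past an adjusted p of 0.05, with a lowest adjusted p of 0.124 and 2384 circRNAs at an unadjusted p under 0.05, and the methods' t-test put 4 past it. With normexp at an offset of 50 in place of the processed signal, limma put 2 past it. The balance of higher and lower calls past both thresholds turned under other settings. It was 331 higher and 422 lower with 75th percentile scaling, and 355 higher and 508 lower without APP/PS1 replicate 1.

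The circRNA of Eif2ak4 had normalized log2 signals of 6.18, 6.53 and 6.40 in WT and 8.34, 7.88 and 7.23 in APP/PS1 mice. All APP/PS1 values were above all WT values, by at least 0.70 between the nearest ones. The mean was 6.37 ± 0.18 (SD, n = 3) in WT and 7.82 ± 0.56 (SD, n = 3) in APP/PS1 mice, a log2 difference of 1.45 with a standard error of 0.34 from the spread within each genotype. This is 2.73-fold, the third largest increase of the 13420 circRNAs in these normalized values. The rank under other processing was not taken.

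The circRNA of Rad54b, the recombination ATPase, had log2 signals of 6.71, 7.16 and 6.81 in WT and 8.81, 8.30 and 7.66 in APP/PS1 mice. The groups did not overlap, and the WT values lay within 0.45 of each other while the APP/PS1 values spread over 1.15. Its log2 difference was 1.36 (standard error 0.36), or 2.56-fold.

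The circRNA of Stag2, the cohesin subunit, had log2 signals of 2.93, 4.77 and 4.80 in WT and 5.82, 5.41 and 5.32 in APP/PS1 mice. Here the WT group was the wider one, with an SD of 1.07 against 0.27, because WT replicate 1, where the spot was not well above background, lay 1.88 below the highest WT value. The log2 difference was 1.35 (standard error 0.64), or 2.55-fold, and without WT replicate 1 it was 0.73.

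The circRNA of Fam208b had log2 signals of 3.95, 4.20 and 4.35 in WT and 6.16, 5.66 and 4.93 in APP/PS1 mice, with no overlap. Its log2 difference was 1.42 (standard error 0.38), or 2.67-fold. The circRNA of Atp13a4, the membrane ATPase, had log2 signals of 3.02, 3.77 and 4.04 in WT and 5.26, 5.15 and 4.52 in APP/PS1 mice. The groups were apart by 0.48, and the log2 difference was 1.37 (standard error 0.38), or 2.58-fold. The Atp13a4 spot of WT replicate 1 was not well above background, and without that array the log2 difference was 1.07.

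**Figure D2:**
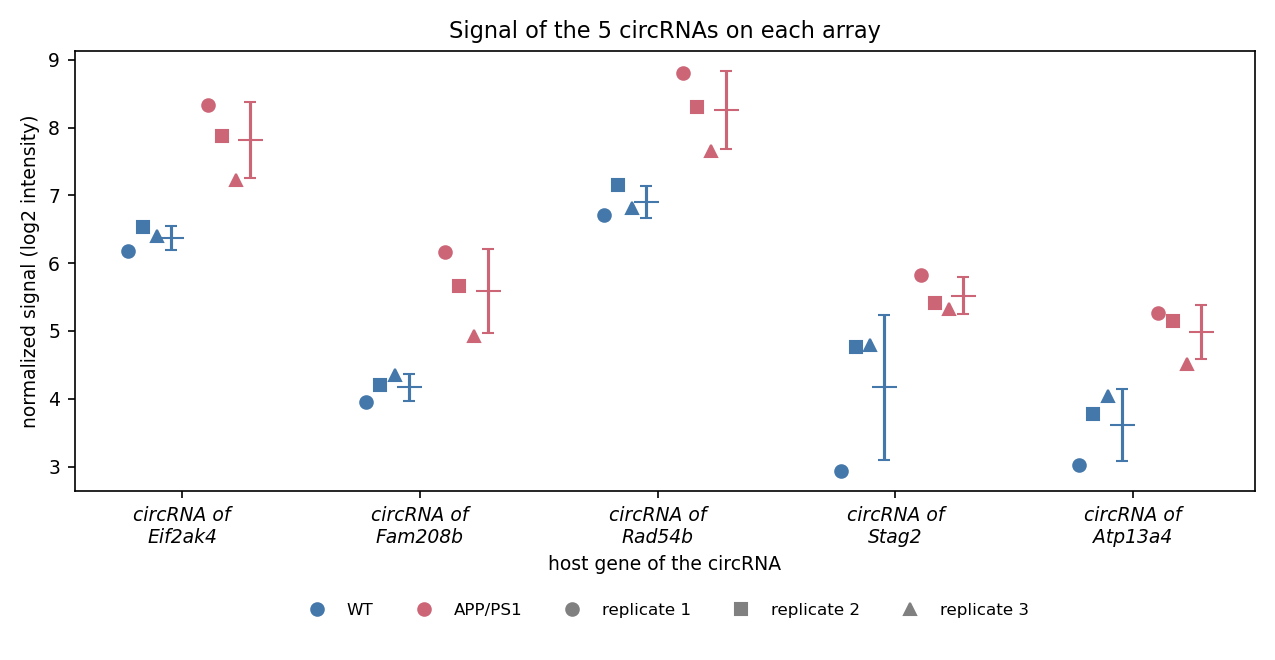
Normalized log2 signal of the 5 circRNAs on each array, with WT in blue and APP/PS1 in red, replicates 1, 2 and 3 as circles, squares and triangles, and the mean ± SD (n = 3) beside each group. All APP/PS1 points lie above the WT points of the same circRNA, APP/PS1 replicate 1 is the highest point of every circRNA, and the long WT bar of Stag2 comes from the point of 2.93.

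In the normalized values, the 5 circRNAs shared the order of the APP/PS1 arrays and the lowest WT array. They did not share the highest WT array, which was replicate 2 for Eif2ak4 and Rad54b and replicate 3 for the other hosts. APP/PS1 replicate 1 had the highest value and APP/PS1 replicate 3 the lowest of their genotype in all 5, an order found in 121 of the 141 other circRNAs on the list that were higher in APP/PS1 mice (85.8%) and in 18.5% of the 13407 circRNAs with a value on every array. WT replicate 1 had the lowest WT value in all 5, as it did in 64.5% of the 141 and in 31.5% of all. These orders depend on the processing. Before normalization and background subtraction, WT replicate 1 was the lowest WT array for Stag2 only. There, Eif2ak4 had 337 units in APP/PS1 replicate 2 and 335.5 in replicate 1. In the authors' processed values, Fam208b had 5.28 in WT replicate 1 and 5.27 in WT replicate 2. Without APP/PS1 replicate 1, the log2 differences were 1.18, 1.12, 1.08, 1.18 and 1.20 for Eif2ak4, Fam208b, Rad54b, Stag2 and Atp13a4. Each stayed above 1 on the log2 scale without that array, which was the highest. Without WT replicate 1, the log2 differences were 1.36, 1.31, 1.27, 0.73 and 1.07 in the same order, so that of Stag2 fell below 1. The part of single arrays in the result was not tested. Since each genotype filled its own row of the slide, an effect of the row cannot be told apart from that of genotype.

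To compare the patterns over the 6 arrays, the log2 values of each circRNA were centred on its own mean, and the mean absolute difference between 2 circRNAs was taken. The pattern of Eif2ak4 was within 0.066 of that of Rad54b and within 0.071 of that of Fam208b on the log2 scale. Atp13a4 differed from these 3 by 0.212 to 0.262 and Stag2 from all 4 by 0.307 to 0.504. The distances of Stag2 and Atp13a4, and their nearest circRNAs below, include their WT replicate 1 values of 2.93 and 3.02. Those values came from spots not well above background, and the distances without that array were not taken. Since the 5 were chosen for a difference on these same arrays, small values among them are largely fixed by that choice, and they are given as a description. Among the 1838 other circRNAs with a host gene in the rows used here, the nearest circRNA to that of Rad54b was one of Dlg1 (0.050), which encodes a scaffold protein, and after Eif2ak4 the nearest to that of Fam208b was one of Hif1a (0.080), which encodes the hypoxia-inducible transcription factor. The nearest to that of Atp13a4 were circRNAs of 9030622O22Rik (0.145) and of Immt (0.162), a protein of the inner mitochondrial membrane. All of these come from the list that was selected for the same genotype difference. Only for Stag2 did the nearest ones, of Usp8 (0.238), a deubiquitinase, and Acer3 (0.242), a ceramidase, come from the sheet of all circRNAs, and both have lower log2 differences, of 0.87 and 0.94.

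How large the difference was varied with the processing, and it moved most for Fam208b, Stag2 and Atp13a4, whose probes stood closest to their background. In the authors' processed values the log2 difference was 1.31 for Eif2ak4 and 1.18 for Rad54b, but 0.82 for Fam208b, 0.69 for Stag2 and 0.59 for Atp13a4. The fold changes in those values were 2.49, 2.27, 1.77, 1.62 and 1.51, so the circRNA of Atp13a4 is the one just inside the threshold of 1.5 by which the list was made, and no circRNA of these hosts is known here just outside it. With the median spot signal without background subtraction the log2 difference was 1.25 for Eif2ak4, 1.16 for Rad54b, 0.78 for Fam208b, 0.58 for Stag2 and 0.53 for Atp13a4, so 3 of the 5 stayed above a fold change of 1.5. Each circRNA was higher in APP/PS1 mice under every alternative that gave it a value, 14 for Eif2ak4, Fam208b and Rad54b and 13 for Stag2 and Atp13a4. Since the 5 were chosen for this difference on these same arrays, that direction was largely fixed by the choice, and it is given as a description.

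**Figure D3:**
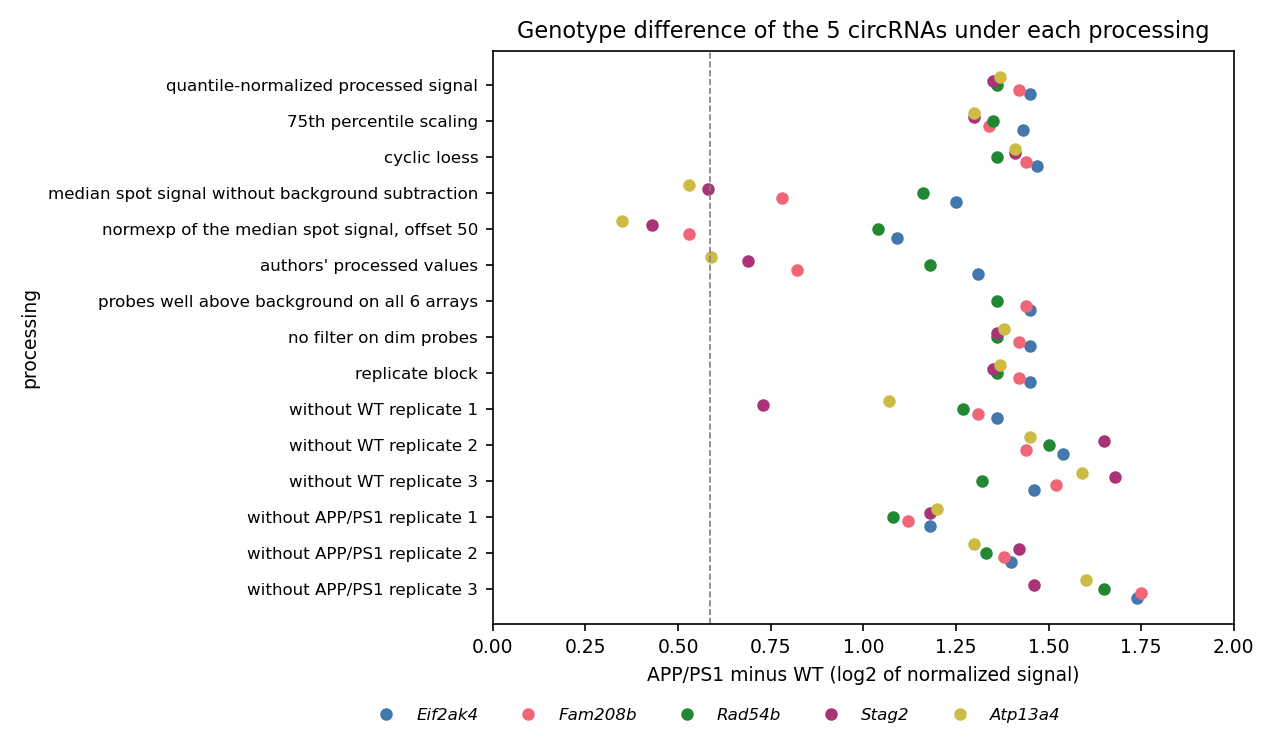
Log2 difference between APP/PS1 and WT mice for each of the 5 circRNAs (colours) under each processing of the same arrays (rows), with a dashed line at a fold change of 1.5. Eif2ak4 and Rad54b stay at 1.04 or more in all rows, whereas Fam208b, Stag2 and Atp13a4 drop to between 0.35 and 0.53 with the normexp correction at an offset of 50.

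Whether circRNAs of functionally related genes differed in the same way was read from 5 gene lists, for which circRNAs were taken from the sheet of all circRNAs, whose rows used here follow the probe number and not a measured value. The lists gave 43 circRNAs of 39 genes. None was higher in APP/PS1 mice past both thresholds in limma, 1 was lower, or 2.33%, and 22 had a positive and 21 a negative difference. With 43 circRNAs, shares of 3.15% and 2.26% as over all circRNAs amount to very few, so these counts are not set apart from the background. At an unadjusted p under 0.05 in limma, 2 were higher and 6 lower, together 18.6% of the 43 against 17.8% of all circRNAs, which is near the background. All APP/PS1 values lay above all WT values in 4 of the 43 and below them in 10, where 12.3% and 12.8% of all circRNAs did so. The 4 are a smaller share than over all circRNAs and the 10 a larger one, which was not tested. The methods' t-test put 0 higher and 1 lower past both thresholds, and neither test put any past an adjusted p of 0.05. Their median log2 difference was 0.02, against -0.01 over all 13420 circRNAs. With 75th percentile scaling both were lower, at -0.03 and -0.05.

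Among genes of translation control and stress kinases, related to Eif2ak4, 0 of 4 circRNAs passed both thresholds, with log2 differences from -0.15 to 0.47. The circRNA of Rptor, a subunit of the mTORC1 kinase complex that answers to amino acids, with 5.77, 5.80 and 5.55 in WT and 5.83, 6.00 and 6.06 in APP/PS1 mice, a log2 difference of 0.26 (adjusted p = 0.341 from limma). That of Tial1, an RNA-binding protein of stress granules, differed by 0.23 (adjusted p = 0.549 from limma). Eif2b1, a subunit of the exchange factor on which phosphorylated eIF2 acts, had the largest value of this list, 0.47 (adjusted p = 0.181 from limma).

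Among cohesin, condensin and other SMC complex genes, related to Stag2, 0 of 13 circRNAs of 11 genes passed both thresholds, with a median log2 difference of 0.07 and values from -0.57 to 0.43. The circRNA of Smc1a, the cohesin core subunit, had 8.78, 8.74 and 8.78 in WT and 8.70, 8.85 and 9.05 in APP/PS1 mice, and the groups overlapped. Its log2 difference of 0.10 had a limma adjusted p of 0.737. Smc2, a condensin subunit, had a log2 difference of 0.23 (limma adjusted p = 0.550). The exonic circRNA of Stag1, which encodes the alternative to Stag2 in cohesin, had 3.60, 3.65 and 3.67 in WT and 4.81, 3.88 and 3.52 in APP/PS1 mice. Only APP/PS1 replicate 1 was clearly above the WT values, the groups overlapped, and the difference was 0.43 (limma adjusted p = 0.514). Without APP/PS1 replicate 3 it was 0.71 and past both thresholds. An intronic circRNA of Stag1 had a difference of 0.07 (limma adjusted p = 0.923). Condensin subunits Ncapd3 and Ncapg had log2 differences of -0.57 and -0.48, and Rad21, the cohesin kleisin, had -0.23. That of Ncapd3 passed both thresholds with 75th percentile scaling (-0.65), without WT replicate 2 (-0.66) and without APP/PS1 replicate 3 (-0.65).

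Among genes of DNA damage signalling and repair, related to Rad54b, 0 of 21 circRNAs of 19 genes were higher past both thresholds and 1 was lower. The lower one was a circRNA of Ercc6, the Cockayne syndrome B protein of transcription-coupled repair, with 5.39, 5.15 and 5.52 in WT and 4.72, 4.49 and 4.57 in APP/PS1 mice. The groups did not overlap, and the log2 difference was -0.75 (limma standard error 0.14, adjusted p = 0.124). Its call was lost with the median spot signal, with normexp at an offset of 50 and in the authors' processed values. The circRNAs of Hltf, a DNA translocase of stalled forks, and Trp53bp1, a sensor of double-strand breaks, had differences of 0.14 and 0.18 (limma adjusted p = 0.672 and 0.490). That of Rad50, of the complex that first binds broken ends, had 4.24, 4.52 and 4.22 in WT and 4.74, 4.85 and 5.0 in APP/PS1 mice. It was higher on all 3 APP/PS1 arrays, by 0.54, which is under a fold change of 1.5 (limma adjusted p = 0.131). It passed both thresholds without WT replicate 2 (0.63) and without APP/PS1 replicate 1 (0.60). The list's lowest and highest values, -1.15 for Top3a and 0.91 for another circRNA of Hltf, each rested on WT replicate 1, with 7.89 against 4.73 and 4.16, and with 2.59 against 4.70 and 4.77.

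Among genes of heterochromatin silencing, the pathway of the Tasor relatives of Fam208b, 0 of 4 circRNAs passed both thresholds. Atrx, a chromatin remodeller, had a log2 difference of 0.02 (limma adjusted p = 0.958). Dnmt3a, a DNA methyltransferase, had 6.29, 6.35 and 6.33 in WT and 6.11, 5.28 and 5.84 in APP/PS1 mice, a difference of -0.58 just short of the fold change of 1.5 (limma adjusted p = 0.215). It was past both thresholds with 75th percentile scaling (-0.64), without WT replicate 1 (-0.59), without APP/PS1 replicate 1 (-0.76) and without APP/PS1 replicate 3 (-0.62). The first 1734 rows of the sheet of all circRNAs held a single circRNA of another P5-type ATPase. It is of Atp13a5, which neighbours Atp13a4 in family and on chromosome 16, and had 3.70, 3.71 and 3.86 in WT and 3.58, 3.28 and 3.23 in APP/PS1 mice. It lay in the opposite direction to that of Atp13a4, with a difference of -0.39 that did not pass the threshold (limma adjusted p = 0.197) and was -0.09 with the median spot signal without background subtraction.

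**Figure D4:**
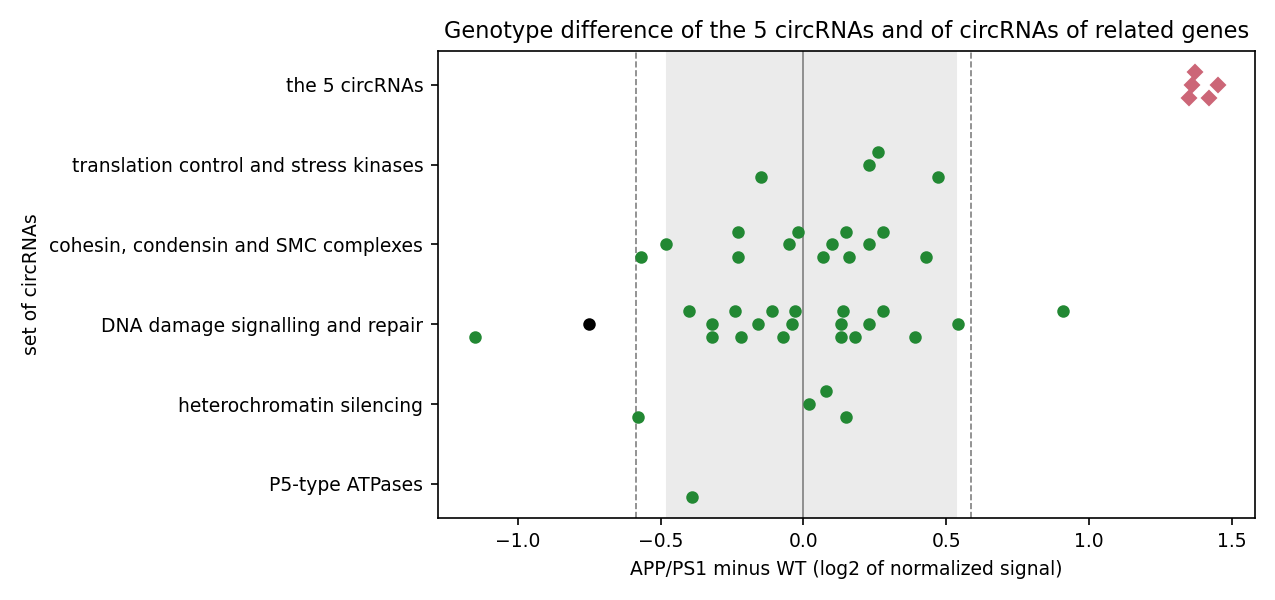
Log2 difference between APP/PS1 and WT mice of the 5 circRNAs (red diamonds, chosen for this difference) and of 43 circRNAs from 5 lists of related genes (green circles, black where past both thresholds), 1 symbol per circRNA. The grey band runs from the 5th to the 95th percentile of all 13420 circRNAs and the dashed lines mark a fold change of 1.5; the diamonds lie between 1.35 and 1.45, and the single black circle is Ercc6 at -0.75.

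The array has no probe for linear marker mRNAs, so the cell type was looked at through circRNAs of marker genes. Of 32 microglial genes, 2 have circRNAs in the first 1734 rows of the sheet of all circRNAs, Inpp5d and Ikzf1. Defining markers such as Cx3cr1, P2ry12 and Tmem119 have none there, so the microglial label was not checked by them here. The authors found Cx3cr1 mainly in the CD11b-positive cells and hardly at all in CD11b-negative ones, and took the isolation as successful. The summed signal of the 3 circRNAs of Inpp5d and Ikzf1, of which Inpp5d was the brightest, was 336, 413 and 332 in WT and 336, 176 and 300 in APP/PS1 mice, lowest in APP/PS1 replicate 2. CircRNAs of genes that mark other brain cells were also well above background. Those of 5 astrocyte genes (6 circRNAs, Slc1a2 the brightest) summed to 1490, 1310 and 1280 in WT and 1180, 1280 and 1370 in APP/PS1. Those of 10 neuronal genes (11 circRNAs, Gria1 the brightest) summed to 1070, 919 and 927 in WT and 875, 915 and 947 in APP/PS1. Those of 3 genes of the oligodendrocyte lineage (3 circRNAs, Ugt8a the brightest) summed to 212, 218 and 209 in WT and 177, 190 and 195 in APP/PS1, and the single endothelial one, of Ets1, had 51.1, 58.0 and 42.9 in WT and 51.6, 44.2 and 38.7 in APP/PS1. Of all 24 marker circRNAs, 23 were well above background on every array and 0 passed both thresholds in limma or in the methods' t-test, where 5.41% of all circRNAs passed both in limma. In limma 3 of the 24, or 12.5%, had an unadjusted p under 0.05, against 17.8% of all circRNAs, so these counts are no result about the markers. Their median log2 difference was -0.08. The microglial list had a median of -0.45, with its 3 circRNAs between -0.51 and -0.43. The endothelial circRNA had -0.18, and the medians of the oligodendrocyte and neuronal lists were -0.16 and -0.04. Leaving out each array, an alternative chosen after seeing the data, gave -0.62 to -0.17 for the microglial list, where -0.17 is without APP/PS1 replicate 2. It gave -0.29 to -0.07 for the endothelial circRNA, -0.20 to -0.06 for the oligodendrocyte list and -0.07 to 0.03 for the neuronal list. Each of the 5 lists had its highest sum on a WT array. Within the APP/PS1 arrays, replicate 1, where the 5 circRNAs were highest, had the highest sum of the microglial and endothelial lists and the lowest of the other 3, and the part of cell types in the result was not tested. The astrocyte list, which matters for Atp13a4, had a median log2 difference of -0.14, and -0.20 to 0.04 with an array left out, the 0.04 without APP/PS1 replicate 1.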

How the data were processed

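The authors deposited scanner output with spot intensity values of each array, background-corrected within the array by Agilent Feature Extraction 11.0.1.1 (per the labels' processing notes), and a table of log2 values for 13420 probes said by the methods to be normalized by limma's quantile method; its background correction is not given in the sources used here. Read from the supplementary table (218 listed circRNAs and the first 1734 rows of the sheet of all) were names, host genes, transcripts, positions, strands, classes and lengths, and which circRNAs are on the list; none of its measured values was used.

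With R 4.3.3 and limma 3.58.1, processed signals were log2 transformed, outlier spots (0 to 6 circRNA spots per array) were dropped, a probe was kept if 3 or more of 6 arrays had it well above background, and quantile normalization followed. The comparison of genotypes used lmFit and eBayes, with Benjamini-Hochberg adjustment over all 13420 probes. Steps were tested on simulated data. The precision is limited by 3 arrays per genotype.

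The 5 circRNAs, the gene lists and the thresholds were chosen with earlier results of these data known. Named from the lists were circRNAs past both thresholds and the 2 brightest of each list, and for likeness the 2 nearest to each of the 5; Eif2b1, Stag1, Ncapd3, Ncapg, Rad21, Rad50, Top3a and the other Hltf circRNA were named after their values were seen. Alternatives changed the scaling, signal source, background correction, filter, test, replicate block and arrays used.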

Additional observations from a re-analysis of the deposited data

How the results depend on the processing

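A slide block was not run, since all arrays lay on 1 slide, and normexp used the median spot signal because the files hold no mean. Over all probes, 423 circRNAs were higher and 303 lower past both thresholds, against 197 and 90 with the median spot signal, 133 and 60 with normexp at an offset of 50, and 214 and 104 in the authors' processed values. Scaling to the 75th percentile gave 331 and 422, so 44.0% of calls were higher against 58.3%. Leaving out each array gave 355 to 540 higher and 234 to 508 lower, the 508 without APP/PS1 replicate 1. For the 43 circRNAs of related genes, 0 higher and 1 lower became 3 lower with 75th percentile scaling (Ercc6, Ncapd3 and Dnmt3a), 0 lower with the median spot signal, normexp or the authors' values, and 0 to 1 higher and 1 to 3 lower with an array left out. The 1 higher was Rad50 without WT replicate 2 or APP/PS1 replicate 1, and the exonic circRNA of Stag1 without APP/PS1 replicate 3. In the last case 3 were lower. The log2 difference of Fam208b moved from 1.42 to 0.78, 0.53 and 0.82 with the median signal, normexp and the authors' values, that of Atp13a4 from 1.37 to 0.53, 0.35 and 0.59, and that of Stag2 from 1.35 to 0.43 with normexp. The normexp offset draws differences of dim probes toward 0 by its construction, and the cause of the other shifts was not tested. Leaving out each array, the values ranged from 1.18 to 1.74 for Eif2ak4, 1.12 to 1.75 for Fam208b, 1.08 to 1.65 for Rad54b, 0.73 to 1.68 for Stag2 and 1.07 to 1.60 for Atp13a4. The filter on all 6 arrays left 3 of the 5, without Stag2 and Atp13a4.

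With the replicate number as a replicate block, 444 circRNAs were higher and 305 lower, and the differences of the 5 were as without it, since the design is balanced. Deviations of same-numbered arrays correlated with -0.25, -0.08 and -0.22 across probes, in order of the number. Differently numbered arrays were not compared, so whether equal numbers mark pairs was not tested. Replicates 1 of both genotypes lay in slide column 1 and replicates 2 in column 2, while replicate 3 lay in column 3 for WT and 4 for APP/PS1.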
